A study of Homo sapiens with 6 samples.

Results

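The regions described here are 83 dense clusters of open sites away from gene start sites, found by ATAC-seq (a transposase assay that tags open DNA) in the breast cancer cell line MDA-MB-231. Every peak summit was widened to reach 250 bp in both directions, and the widened summits of 6 libraries were merged, which gave 56419 union loci. Loci were kept when at least 4 of the 6 libraries had a summit there and they lay on chromosomes 1 to 22, which left 26269 loci. They were called distal when their midpoint lay over 1 kb from every annotated start site (GENCODE release 44 mapped to GRCh37), and 16097 loci were. Distal loci with midpoints at most 12500 bp apart were joined, and groups of 4 or more loci were called clusters. The 83 clusters hold 360 member loci, 2.24% of the distal loci. The members were thus chosen by the presence of summits in these same libraries, and the number of libraries with a summit and the spacing of loci are given as a description.

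The study asked what SAP30, a subunit of the SIN3 corepressor complex, does in breast cancer. MDA-MB-231 is an established triple-negative line, without estrogen receptor, progesterone receptor or HER2 amplification. There were 3 libraries of parental cells and 3 of SAP30-KO1 cells, in which SAP30 had been knocked out with CRISPR and which the study describes as a mix of several selected knockout cells. No other knockout line was profiled by ATAC-seq. Loss of SAP30 therefore cannot be told apart here from other differences between this line and parental cells. The study counts the libraries of a group as separate biological samples or experiments. Whether they came from separate cultures is not given in the sources used here, so p-values measure only the spread between these libraries, which may be technical. Promoters (within 1 kb of a start site) of the mesenchymal and basal markers VIM, CD44, EGFR and CAV1 had a summit in all 6 libraries, AXL in 3 and FOSL1 in 2. Of the luminal markers GATA3 had one in 5 libraries, ERBB3 in 4, FOXA1 in 2, ESR1, PGR and TFF1 in 1 each and SPDEF in none. The promoters of PTPRC, CD3E and ALB, markers of blood and liver cells, were at 0 in every library, and that of PECAM1 was not analysed here. The SAP30 promoter had a summit in all 6 libraries, which is no check of the knockout, since a promoter can be open whether or not the gene is disrupted.

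Distal open sites are often enhancers, short stretches where transcription factors bind and raise the transcription of a gene that may lie far away. Where many such sites lie close together, they are often found near genes that set the identity or the growth of a cell. Chromatin marks such as H3K27ac, which are used to define super-enhancers, were not analysed here, so the clusters are described only as dense open sites. AP-1, a dimer of FOS and JUN family proteins, is a common binder of distal sites in invasive breast cancer cells and recognizes the letters TGANTCA on either strand. The SIN3 complex carries histone deacetylases and is known mostly from promoters. By ChIP-seq in this cell line, the study found SAP30 at promoters and also in introns and between genes.

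The sequences of 10 loci are shown as examples from clusters described below. Each is the 251 bases around the median summit of the strongest locus of its cluster, read from the plus strand of GRCh37 (hg19), 5′ to 3′, with the AP-1 letters TGANTCA in capitals. The first 6 belong to clusters that ranked lower in all SAP30-KO1 libraries, the next pair to clusters that ranked higher, and the last pair to clusters among the strongest in both groups.
ECI2 locus 2 (chr6:4358911-4359161): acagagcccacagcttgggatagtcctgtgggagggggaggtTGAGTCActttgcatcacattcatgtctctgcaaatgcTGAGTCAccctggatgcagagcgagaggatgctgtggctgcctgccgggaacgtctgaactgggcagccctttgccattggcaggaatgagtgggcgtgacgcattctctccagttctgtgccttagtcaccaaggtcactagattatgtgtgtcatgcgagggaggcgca
FAT4 locus 2 (chr4:126649878-126650128): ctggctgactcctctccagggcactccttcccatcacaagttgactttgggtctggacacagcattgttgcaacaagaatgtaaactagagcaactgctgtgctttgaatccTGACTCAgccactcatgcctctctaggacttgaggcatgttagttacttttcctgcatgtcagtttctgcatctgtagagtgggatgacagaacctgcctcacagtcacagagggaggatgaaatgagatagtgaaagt
TGFBI locus 2 (chr5:135342585-135342835): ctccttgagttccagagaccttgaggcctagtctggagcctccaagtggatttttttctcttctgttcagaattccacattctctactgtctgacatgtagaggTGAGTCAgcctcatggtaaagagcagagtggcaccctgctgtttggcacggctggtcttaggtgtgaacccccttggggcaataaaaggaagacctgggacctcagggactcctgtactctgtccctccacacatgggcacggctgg
IRS2 locus 1 (chr13:110651289-110651539): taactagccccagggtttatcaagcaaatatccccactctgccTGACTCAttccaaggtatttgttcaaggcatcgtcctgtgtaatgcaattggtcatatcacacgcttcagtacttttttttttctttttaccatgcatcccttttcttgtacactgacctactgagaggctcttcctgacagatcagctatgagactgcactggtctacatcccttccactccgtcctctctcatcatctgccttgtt
BHLHE40 (first) locus 4 (chr3:5028567-5028817): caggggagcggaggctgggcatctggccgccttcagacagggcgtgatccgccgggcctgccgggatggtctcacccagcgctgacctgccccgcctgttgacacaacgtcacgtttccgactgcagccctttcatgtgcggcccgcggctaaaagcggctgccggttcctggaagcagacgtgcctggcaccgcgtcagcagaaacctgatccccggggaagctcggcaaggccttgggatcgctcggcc
PLXNA2 locus 3 (chr1:208380922-208381172): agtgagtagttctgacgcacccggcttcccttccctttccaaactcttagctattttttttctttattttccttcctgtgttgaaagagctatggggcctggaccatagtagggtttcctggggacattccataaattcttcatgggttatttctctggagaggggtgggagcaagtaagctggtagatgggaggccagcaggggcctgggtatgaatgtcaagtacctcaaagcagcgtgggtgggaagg
HS1BP3 locus 3 (chr2:20784249-20784499): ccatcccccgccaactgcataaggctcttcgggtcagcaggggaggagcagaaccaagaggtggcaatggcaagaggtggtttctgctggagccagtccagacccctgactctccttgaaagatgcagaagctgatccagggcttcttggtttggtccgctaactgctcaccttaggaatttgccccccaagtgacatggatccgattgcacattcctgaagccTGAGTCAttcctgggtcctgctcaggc
HS3ST1 locus 4 (chr4:11507314-11507564): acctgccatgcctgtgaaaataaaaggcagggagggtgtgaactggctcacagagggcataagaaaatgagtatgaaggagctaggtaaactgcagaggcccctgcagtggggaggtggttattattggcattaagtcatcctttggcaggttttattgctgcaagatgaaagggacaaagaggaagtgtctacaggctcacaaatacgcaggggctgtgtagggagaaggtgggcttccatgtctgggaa
FGFBP1 locus 2 (chr4:15907763-15908013): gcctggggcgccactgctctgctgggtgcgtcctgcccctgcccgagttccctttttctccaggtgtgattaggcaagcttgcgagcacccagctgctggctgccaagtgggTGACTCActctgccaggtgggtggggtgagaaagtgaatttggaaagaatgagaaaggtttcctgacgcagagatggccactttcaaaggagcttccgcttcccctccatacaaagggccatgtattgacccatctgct
CCN1 locus 1 (chr1:86072930-86073180): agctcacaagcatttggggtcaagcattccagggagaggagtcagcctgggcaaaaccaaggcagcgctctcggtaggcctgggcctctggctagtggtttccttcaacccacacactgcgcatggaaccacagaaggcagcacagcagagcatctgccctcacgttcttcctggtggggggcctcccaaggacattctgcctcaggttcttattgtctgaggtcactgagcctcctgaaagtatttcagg
The loci of ECI2, FAT4, TGFBI, IRS2, HS1BP3 and FGFBP1 hold the AP-1 letters inside these 251 bases, and those of BHLHE40, PLXNA2, HS3ST1 and CCN1 do not. The 6 lower clusters shown are not those with the largest differences. VAC14 and SH3TC2, with larger differences than TGFBI and IRS2, are not shown, and their strongest loci lack the letters. Of the remaining lower clusters, the strongest locus of NENF holds the letters and those of STEAP3 and KCMF1 do not.

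Of the 83 clusters, 61 had 4 loci, 17 had 5, 4 had 6 and 1 had 7. They spanned 10.0 to 45.5 kb, with a median of 22.5 kb, and the median gap between neighbouring midpoints was 7.14 kb. Clusters were named by the protein-coding gene they overlap, which 34 of them did, and the other 49 by the gene with the nearest start site. The name is a position and not an assignment of a target. The median distance from the centre of a cluster to the nearest protein-coding start site was 70.1 kb, close to the 69.3 kb of the 15737 distal loci outside clusters. Member loci lay in introns in 53.3% of cases, between genes in 40.8% and in exons in 5.83%, against 59.2%, 36.7% and 4.05% of the other distal loci. A named long noncoding RNA gene overlapped 19 clusters, among them PVT1 at both clusters near MYC.

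Member loci had a summit in all 6 libraries in 214 cases (59.4%), in 5 libraries in 90 and in 4 libraries in 56, and 55.7% of the other distal loci had one in all 6. Every locus was present in all 6 libraries in 11 clusters, those named by MYC (first), HS1BP3, DUSP5, FGFBP1, CCN1, TRIB1, KLF10, IRF2BPL, STEAP3, NENF and LRRC8D. The limits of the rule passed through a continuum. The widest gap inside a cluster was 12.481 kb, at LRRC8D, and the narrowest gap between a cluster and the next distal locus was 12.582 kb, at MYC (second). The member nearest to a start site lay 1.115 kb from it, in the RPRD1B/TGM2 cluster, and the nearest kept locus under the limit lay at 0.999 kb. There were 230 groups of 3 loci just outside the limit of 4, with a mean percentile of 54.2, and the 61 clusters of 4 had 54.8. Members with a summit in exactly 4 libraries had a mean percentile of 25.04, and 4 further distal loci inside cluster spans with a summit in 3 libraries had 18.9.

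Clusters were unevenly spread over the genome. The long arm of chromosome 1 held 11 clusters with 47 member loci, 13.1% of the members, where 5.24% of the other distal loci lie. The long arms of chromosomes 5 and 8 and the short arms of chromosomes 2 and 1 followed with 33, 30, 28 and 24 member loci. No cluster was found on chromosomes 12, 17, 19, 21 and 22, which together held 1428 distal loci. The copy number of these arms was not measured here, and its part in the density of summits was not tested.

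The largest cluster, with 7 loci over 41.4 kb (chr1:85754923-85796362), overlapped DDAH1, the gene of an enzyme that degrades asymmetric dimethylarginine. It also overlapped the long noncoding RNA gene BCL10-AS1. Its nearest start site was that of BCL10, a signalling adaptor upstream of NF-kB, at 33.3 kb. The score of a summit is the −log10 of the peak caller's q value, and levels are given as the percentile rank of that score in the library's own list, from 0 (no summit) to 100 (the highest score). The mean percentile of the 7 DDAH1 loci was 76.02, 68.98 and 65.9 for the parental replicates and 44.02, 75.1 and 71.6 for the SAP30-KO1 replicates. SAP30-KO1 replicate 1 was far below the other 5 libraries, and the groups overlapped. Loci 3, 5 and 7 of the cluster had no summit in that library.

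Clusters of 6 loci lay near ZFP36L2 (chr2:43268708-43314208), which encodes a protein that destabilizes AU-rich mRNAs, and near GRB10 (chr7:50880312-50907306), an adaptor that dampens insulin receptor signalling. The other clusters of 6 loci overlapped PRKCH (chr14:62004168-62031933), a protein kinase C, and KIAA1217 (chr10:24717250-24753378). The ZFP36L2 (first) cluster had 66.8, 54.7 and 54.6 for the parental replicates and 38.6, 57.6 and 55.6 for the SAP30-KO1 replicates. The GRB10 cluster had 66.2, 54.7 and 54.9 for the parental replicates and 32.5, 63.3 and 55.5 for the SAP30-KO1 replicates. In the ZFP36L2 (first) and GRB10 clusters, SAP30-KO1 replicate 1 was the lowest library and the groups overlapped. PRKCH was at 40.2, 42.9 and 35.6 in parental cells against 36.3, 62.8 and 36.7 in SAP30-KO1 cells. KIAA1217 was at 52.8, 31.97 and 37.3 in parental cells against 32.4, 41.8 and 53.6 in SAP30-KO1 cells. Both were among the weaker clusters, and in PRKCH only SAP30-KO1 replicate 2 stood above the other libraries.

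The strongest cluster was that of 5 loci downstream of MYC, the proto-oncogene and growth regulator, at chr8:128911470-128944383 over 32.9 kb. It overlapped the long noncoding RNA gene PVT1 and spanned a locus at a start site. Its mean percentile was 86.8, 89.02 and 95.1 for the parental replicates and 80.02, 90.5 and 91.2 for the SAP30-KO1 replicates, and all 5 loci had a summit in every library. The outermost loci were near the top of every list, the first between 95.8 and 99.9 and the fifth between 99.2 and 99.8, while the second locus was weaker, between 39.5 and 82.4. Groups overlapped at the level of the cluster (difference of the means -3.04 points, two-sided exact permutation p = 0.6).

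The next strongest clusters were those of HS1BP3, FGFBP1 (a secreted carrier of fibroblast growth factors), CCN1 (a matricellular protein and a target of YAP) and DACT1 (a regulator of Wnt signalling). The FGFBP1 cluster (chr4:15895322-15923544) had 83.3, 83.4 and 83.95 for the parental replicates and 83.3, 78.7 and 85.7 for the SAP30-KO1 replicates. Its parental libraries lay within 1 point of each other, although no library had a summit at the FGFBP1 promoter. The CCN1 cluster (chr1:86072762-86095114) had 84.02, 81.6 and 77.4 for the parental replicates and 88.6, 79.1 and 83.8 for the SAP30-KO1 replicates. At the CCN1 promoter a single library had a summit, while the first locus of the cluster, whose sequence is shown above, was at 97.8 or higher in every library. DACT1 (chr14:59197913-59216267) was at 84.5, 81.2 and 89.3 in parental cells against 78.3, 65.7 and 85.3 in SAP30-KO1 cells. Its promoter had no summit in any library, and its groups overlapped.

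Among the other clusters of 5 loci were those of RGS1 and DUSP5. RGS1, a regulator of G protein signalling, had a cluster (chr1:192499953-192529187) at 84.5, 81.9 and 74.2 for the parental replicates and 78.04, 80.4 and 78.2 for the SAP30-KO1 replicates, with no summit at its promoter. DUSP5, a phosphatase of ERK, had a cluster (chr10:112158200-112174921) at 78.5, 73.7 and 66.9 for the parental replicates and 76.97, 68.3 and 73.6 for the SAP30-KO1 replicates. The means of the groups at DUSP5 differed by -0.0322 points, although locus 2 had a mean of 26.2 for parental and 61.2 for SAP30-KO1 cells and locus 4 60.5 and 30.8. Both loci overlapped between the groups.

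Loci of 1 cluster differed widely in strength. The SD of the mean percentiles of the loci inside a cluster had a median of 22.2 points, with a range of 7.65 to 36.8. A locus at a mean percentile of 90 or more was found in 24 clusters (33 member loci, 9.17%, against 7.24% of the other distal loci), and 43 member loci (11.9%) were under 25, against 14.6% of the others. Across 277 pairs of neighbouring member loci, which share their libraries and chromosome arm, Pearson's r of the mean percentile was 0.103 and Spearman's rho 0.102. Strong and weak loci thus stood side by side, as the plot of loci by distance from the cluster centre shows.

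**Figure D1:**
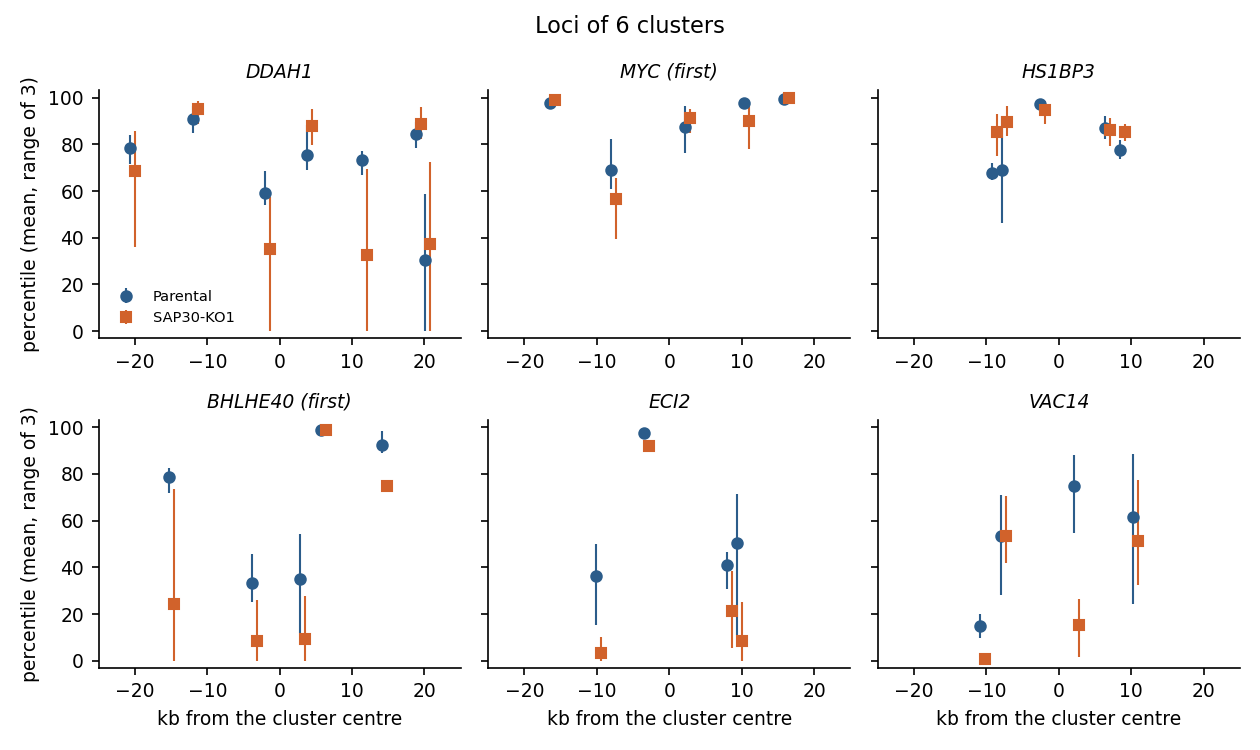
Percentile of each locus against its distance from the cluster centre in kb, for 6 clusters. Points are means of 3 libraries and bars their range, circles parental and squares SAP30-KO1 cells. The loci of MYC (first) and HS1BP3 overlap or lie high in both groups, while in BHLHE40 (first) and ECI2 weak loci lie towards 0 in SAP30-KO1 cells beside loci of high rank. In VAC14 the third locus has a mean of 15.5 in SAP30-KO1 cells and the second one of 53.4.

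To ask whether clustered sites are stronger than scattered ones, the mean percentile of the member loci was set against that of the 15737 other distal loci of the same library. Member loci averaged 59.6, 53.8 and 56.0 for the parental replicates and 47.96, 60.7 and 54.5 for the SAP30-KO1 replicates, and the other distal loci 54.0, 48.2 and 50.2 against 46.9, 58.7 and 52.2. Member loci were the stronger in 6 of 6 libraries, by 3.71 points on average (exact sign-flip permutation test over 6 libraries, two-sided, p = 0.031, the smallest possible). All libraries score the same loci, so the test measures only how far the libraries agree on them. It does not measure the variation between loci or clusters. A locus without a summit counts as 0, and among the loci with a summit in all 6 libraries, 214 of them members, the excess was 2.39 points (exact sign-flip permutation p = 0.031). The excess missed the threshold when summits were ranked within their own chromosome arm (2.53 points, exact sign-flip permutation p = 0.0625), when only summits with a q value of 0.0001 or less were used (2.75 points, exact p = 0.0625) and in the 5 clusters of 6 or more loci (0.722 points, exact p = 0.8125).

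The groups differed in the mean percentile of the member loci by less than the spread between replicates. It was 56.5 ± 2.95 for parental and 54.4 ± 6.36 for SAP30-KO1 cells (SD, n = 3; difference -2.11 points, two-sided exact permutation p = 0.7), and without SAP30-KO1 replicate 1, the library with the fewest summits, the difference was 1.09 points.

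The excess of the member loci over the other distal loci of the same library did differ between the groups beyond the spread of the libraries. It was 5.58, 5.56 and 5.79 points in the parental replicates and 1.08, 1.95 and 2.304 points in the SAP30-KO1 libraries. All parental libraries lay above all SAP30-KO1 libraries, and SAP30-KO1 minus parental was -3.86 points (5.64 ± 0.129 against 1.78 ± 0.632, SD, n = 3; two-sided exact permutation p = 0.1, the smallest that 3 against 3 libraries can give). This comparison was added after the data were seen. The ranges stayed apart with ranks within chromosome arms (-4.01), without the long arm of chromosome 11 (-4.54), with the other distal loci weighted to the arms of the members (-4.01), with the same number of top-ranked summits in each library (-3.71) and among loci with a summit in all 6 libraries (-2.16). In the 5 clusters of 6 or more loci the ranges overlapped (-4.89, exact permutation p = 0.4).

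The excess over single loci of the same library was then taken by the number of loci joined. Groups of 2 distal loci stood above single loci of the same library by 2.04, 3.09 and 1.67 points in the parental libraries and by 1.004, 1.07 and 0.808 points in the SAP30-KO1 libraries. Groups of 3 stood above single loci by 5.68, 4.45 and 3.88 points against 0.860, 1.28 and 1.55 points. Clusters of 4 stood above single loci by 5.03, 6.55 and 5.58 points against 1.69, 0.944 and 1.38 points, and clusters of 5 by 9.18, 6.69 and 10.4 points against 4.203, 5.88 and 5.57 points. In each of these 4 sizes all parental libraries were above all SAP30-KO1 libraries (two-sided exact permutation p = 0.1 for each). The 4 sizes share the same libraries and the same single loci as a baseline, so they are not independent results. The comparison by size was not planned either. The mean excess in parental cells was 2.27, 4.67, 5.72 and 8.76 points for 2, 3, 4 and 5 loci, but 3.93 points in the 5 clusters of 6 or 7 loci, where the libraries ranged from 0.431 to 7.51 points and the groups overlapped. The SAP30-KO1 minus parental difference of the mean percentile went from 2.16 points for the 12001 single loci to 0.856 for groups of 2, -1.28 for groups of 3, -2.22 for clusters of 4 and -1.88 for clusters of 5 or more. None of these 5 differences exceeded the spread of the libraries by itself.

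**Figure D2:**
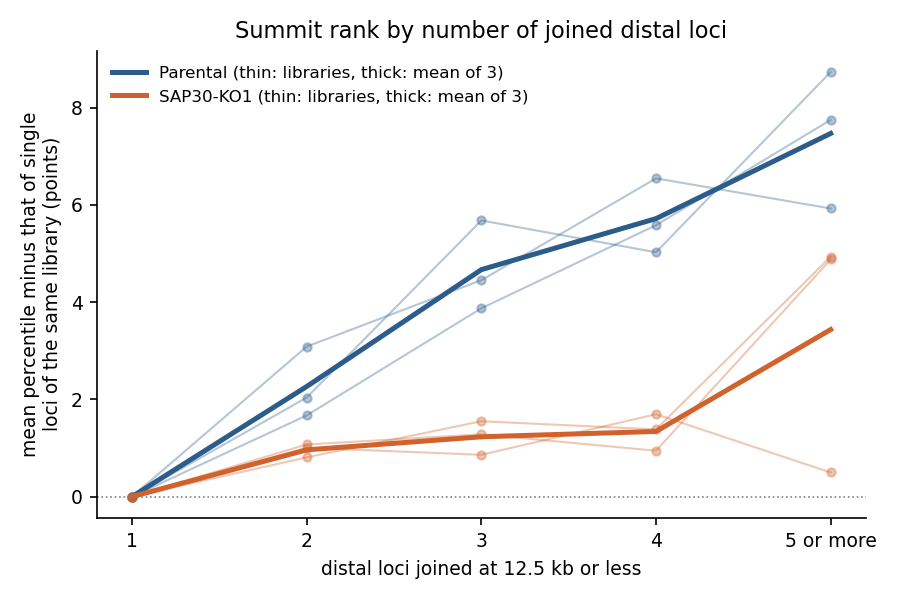
Mean percentile of distal loci by the number of loci joined at 12500 bp or less, minus that of single loci of the same library, in percentile points. Thin lines are libraries and thick lines means of 3. Parental lines are at 3.88 to 5.68 points at 3 loci, where SAP30-KO1 lines are at 0.860 to 1.55 points.

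At the member loci without a summit in every library, 52 lacked it in 1 SAP30-KO1 library alone and 11 in 2, 38 lacked it in 1 parental library alone and 15 in 2, and 30 lacked it in 1 library of each group. This split was not made for the other distal loci. The share of member loci with a summit was 84.4% in SAP30-KO1 replicate 1 and 96.1% in replicate 2, the libraries with the shortest and the longest list. The other distal loci were close to this, at 84.0% and 95.9%.

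Next, each cluster was compared between the groups. Its mean percentile was lower in SAP30-KO1 cells in 45 clusters and higher in 38. In 11 clusters (13.3%) all SAP30-KO1 libraries lay below all parental libraries, against 8.04% of the 1753 smaller groups of 2 or 3 distal loci. In 2 clusters (2.41%) they all lay above, against 9.24% of the smaller groups. The count of higher clusters changed most with SAP30-KO1 replicate 1, the shortest list. Without it, with fewer values that have to lie apart, 12 clusters (14.5%) were lower and 14 (16.9%) higher, against 10.1% and 18.5% of the smaller groups. With 3 against 3 libraries the exact permutation p of such a cluster is 0.1, so that no single cluster could pass a threshold of 0.05. With ranks within chromosome arms, 10 of the 11 and 1 of the 2 kept their place, NENF and HS3ST1 did not, and FGFBP1 joined the lower ones. With the same number of top-ranked summits in each library 6 of 60 clusters were lower and 2 higher, and with summits widened by 100 bp both ways 7 of 60 were lower and 0 higher. The shares of the smaller groups under these alternatives were not computed.

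**Figure D3:**
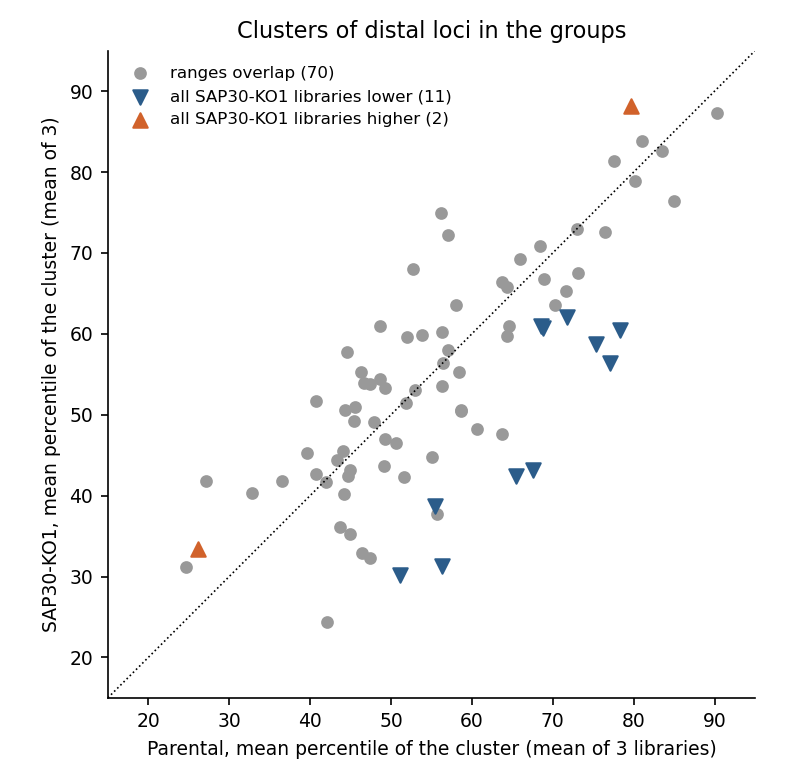
Mean percentile of each of the 83 clusters in parental cells (horizontal) and SAP30-KO1 cells (vertical), each a mean of 3 libraries. Triangles mark clusters whose libraries do not overlap between the groups, 11 lower and 2 higher in SAP30-KO1 cells, and the dotted line marks equal levels.

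The largest difference was at the cluster whose nearest gene is ECI2, an isomerase of fatty acid oxidation, at 226 kb (chr6:4351952-4372275). Its mean percentile was 60.1, 42.4 and 66.6 for the parental replicates and 24.7, 29.9 and 39.3 for the SAP30-KO1 replicates. All 4 loci were lower on average, a difference of -25.1 points for the cluster. Locus 2, which holds 2 copies of the AP-1 letters in the sequence shown above, was at 97.4, 96.7 and 98.7 for the parental replicates and 92.98, 89.7 and 93.3 for the SAP30-KO1 replicates, so that it ranked lower in every SAP30-KO1 library and was still near the top of each list. The first locus was at 43.1, 15.2 and 50.04 in parental cells against 0, 10.1 and 0 in SAP30-KO1 cells, where 2 libraries had no summit. The promoter of ECI2 was lower as well, at 84.2, 83.6 and 93.7 in parental cells against 65.4, 53.4 and 70.2 in SAP30-KO1 cells.

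The BHLHE40 (first) cluster (chr3:5007484-5037907) spans the gene and a locus at the start site of BHLHE40, a basic helix-loop-helix repressor that answers to stress and the circadian clock. Its mean percentile was 69.04, 63.7 and 69.8 for the parental replicates and 40.04, 54.3 and 35.3 for the SAP30-KO1 replicates, a difference of -24.3 points. The loci of this cluster changed to unequal extents, and 4 of 5 were lower on average. The fourth, shown above, was at 98.4 to 99.3 in all 6 libraries. The fifth was at 90.5, 98.2 and 88.9 in parental cells against 73.7, 73.2 and 77.4 in SAP30-KO1 cells, without overlap, and the first had no summit in 2 of the SAP30-KO1 libraries. A second cluster further from the gene (chr3:5054639-5069134) overlapped between the groups, with means of 71.6 and 65.3. The BHLHE40 promoter had a summit in all 6 libraries, with means of 84.3 for parental and 93.5 for SAP30-KO1 cells and overlap.

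The cluster nearest to FAT4, an atypical cadherin linked to the Hippo pathway, lay 413 kb from its start site (chr4:126640949-126656867). It had 63.6, 68.6 and 63.9 for the parental replicates and 26.7, 43.2 and 57.2 for the SAP30-KO1 replicates. The parental libraries lay close together and the SAP30-KO1 libraries were lower and far apart (difference -23.00 points). Locus 1 was at 44.3, 66.5 and 30.98 in parental cells against 29.8, 16.1 and 0 in SAP30-KO1 cells. The second locus, which carries the AP-1 letters shown above, had group means of 89.9 and 80.03 and overlapped.

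The cluster in VAC14, a scaffold of the kinase complex that makes the lipid PI(3,5)P2, had 60.1, 42.6 and 50.6 for the parental replicates and 28.7, 41.6 and 20.4 for the SAP30-KO1 replicates (chr16:70727758-70749661, difference -20.9 points). Locus 3 (chr16:70740850-70741490, intronic) had the largest difference of any member locus with a summit in all 6 libraries, at 81.2, 54.6 and 88.1 for the parental replicates and 26.4, 18.7 and 1.45 for the SAP30-KO1 replicates. The SAP30-KO1 libraries were lower there by 59.1 points on average, and its neighbour, the second locus, had a mean of 53.5 for parental and 53.4 for SAP30-KO1 cells.

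PLXNA2 encodes a receptor of semaphorins, and the 5 loci of its cluster lay in introns near the 5′ end of the gene (chr1:208374323-208405798). The cluster had 73.2, 75.3 and 82.8 for the parental replicates and 52.6, 62.1 and 54.3 for the SAP30-KO1 replicates, a difference of -20.7 points, and all 5 loci were lower on average. Locus 3, shown above, was at 84.9 to 98.2 in the 6 libraries and overlapped. The first and the fifth loci did not overlap, the first at 83.4, 88.5 and 73.1 in parental cells against 64.5, 46.00 and 41.9 in SAP30-KO1 cells. The fifth had a summit in 1 of 3 SAP30-KO1 libraries and in all parental libraries.

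SH3TC2, known for endosomal recycling in Schwann cells, had a cluster inside the gene (chr5:148345082-148364535) at 83.2, 78.9 and 72.7 for the parental replicates and 52.4, 71.99 and 57.2 for the SAP30-KO1 replicates. Locus 1, at 92.9 or higher in every library, overlapped between the groups, and the second and the fourth were lower in all SAP30-KO1 libraries. The difference of the cluster was -17.8 points.

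TGFBI, a matrix protein induced by TGF-beta, had a cluster 19.01 kb from its start site (chr5:135334786-135356555) at 78.8, 76.1 and 71.3 for the parental replicates and 55.4, 66.9 and 53.8 for the SAP30-KO1 replicates. The first locus was at 89.6, 67.4 and 70.9 in parental cells against 0, 35.6 and 35.7 in SAP30-KO1 cells, while the third and the fourth had group means within 3 points of each other. At the TGFBI promoter the ranks were 97.05, 98.5 and 98.7 for the parental replicates and 94.5, 92.02 and 93.9 for the SAP30-KO1 replicates. The promoter thus ranked lower in all SAP30-KO1 libraries too, though it stayed above 90 in each.

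IRS2, an adaptor of the insulin receptor, was the nearest gene, at 222 kb, of a cluster (chr13:110650952-110670639) with 55.6, 53.7 and 56.99 for the parental replicates and 33.9, 49.2 and 33.2 for the SAP30-KO1 replicates. None of its 4 loci was without overlap by itself, and the fourth had means of 47.5 and 8.37. Smaller differences without overlap were found at STEAP3, an endosomal iron reductase (-9.73 points), at NENF, a secreted heme-binding protein (-8.06 points), and at KCMF1, a ubiquitin ligase (-7.54 points). At KCMF1 the outer loci moved in opposite directions, the first with means of 73.7 and 14.9 and the fourth with 7.66 and 40.9 in parental and SAP30-KO1 cells. Apart from ECI2 and TGFBI, the promoters nearest to the lower clusters overlapped between the groups. Their SAP30-KO1 means were higher at BHLHE40, STEAP3 (42.8 and 67.1) and KCMF1 (5.16 and 21.1). They were lower for the clusters of FAT4, VAC14, PLXNA2, SH3TC2, IRS2 and NENF.

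Of the clusters that were higher, HS1BP3, named for binding the haematopoietic protein HCLS1, was among the strongest of all (chr2:20777356-20795940). Its mean percentile was 81.3, 74.01 and 83.8 for the parental replicates and 85.6, 92.04 and 86.7 for the SAP30-KO1 replicates, a difference of 8.41 points. All 5 of its loci hold the AP-1 letters within 250 bases of the summit. The first locus was at 66.2, 72.1 and 64.5 in parental cells against 74.8, 92.9 and 87.7 in SAP30-KO1 cells, and the third, shown above, was at 88.7 or higher in every library and overlapped. The HS3ST1 cluster (chr4:11497732-11507763), near a sulfotransferase that modifies heparan sulfate, was the shortest cluster and among the weakest, at 27.2, 24.8 and 26.4 for the parental replicates and 30.1, 29.6 and 40.7 for the SAP30-KO1 replicates. None of its loci was without overlap, and the promoter of HS3ST1 ranked higher in SAP30-KO1 cells, at 87.5, 96.7 and 93.1 in parental cells against 99.1, 99.9 and 98.1 in SAP30-KO1 cells. The rise was not particular to this cluster. Its difference was 7.29 points, while the other distal loci of the short arm of chromosome 4 ranked 12.6 points higher in SAP30-KO1 cells.

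**Figure D4:**
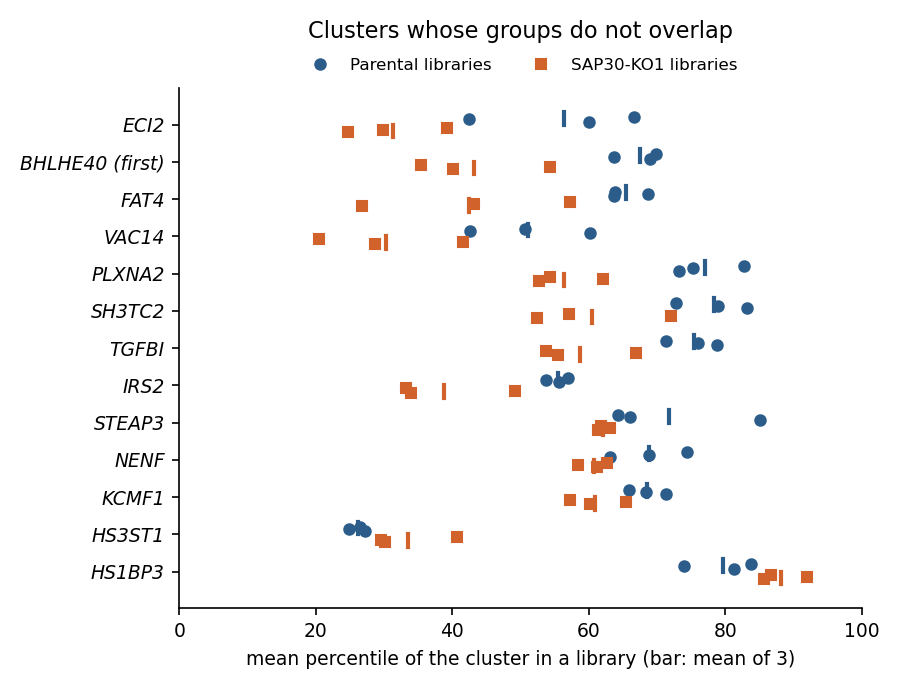
Mean percentile, from 0 to 100, of the 13 clusters whose groups do not overlap. Circles are parental and squares SAP30-KO1 libraries, and bars the means of 3. In the top 11 all squares lie left of all circles, and in HS3ST1 and HS1BP3 all squares lie to the right.

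At the level of single loci the members did not stand out. SAP30-KO1 libraries all lay below the parental libraries at 27 member loci (7.5%) and all above at another 27 (7.5%), against 7.8% and 10.4% of the other distal loci and 7.2% and 9.07% of all 26269 kept loci. Both directions were found within 6 clusters, DUSP10, HPCAL1, COL4A2, KCMF1, TMEM135 and TOX2. At COL4A2, a chain of basement membrane collagen, the first locus was at 14.4, 22.1 and 47.6 in parental cells against 89.05, 76.6 and 53.5 in SAP30-KO1 cells. The second locus of the same cluster was at 72.5, 85.4 and 78.7 in parental cells against 18.97, 55.1 and 59.05 in SAP30-KO1 cells. Neighbouring loci near HPCAL1, a neuronal calcium sensor, also went opposite ways, with group means of 36.4 and 70.8 at the second and 81.9 and 53.5 at the third locus. Of 277 neighbouring pairs 138 (49.8%) had differences of the same sign, with Pearson's r of -0.0634 between their differences, and in the 1983 pairs of groups of 2 or 3 loci 54.6% had the same sign, with r of 0.156.

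In limma, fitted to the normal scores of the ranks at 16309 loci with a summit in all 6 libraries, 214 of them members, no locus passed an adjusted p of 0.05 in either direction (0% of all loci lower and 0% higher). At an unadjusted limma p of 0.05 or less, 13 member loci were lower (6.07%, against 4.19% of all loci) and 9 higher (4.21%, against 5.28%). The lowest adjusted p of a member was 0.22, at the third VAC14 locus. With the log2 of the score in place of ranks, limma called 4 loci lower and 14 higher, and with its trend and robust options 34 and 59, of which 0 were members in each case.

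Other member loci with large differences and a summit in every library were found in clusters that overlapped as a whole. Lower were the first locus of TOX2 (-33.5 points) and the fourth of MLPH (-29.8 points). Higher were the second of TFCP2L1, an epithelial transcription factor (32.2 points), the second of SNX33 (31.7 points), the first of STC2, a secreted glycoprotein hormone (31.2 points), and the third of PRKAG2, a subunit of AMP-activated kinase (29.6 points).

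The sequences under the summits were then searched for letters that transcription factors recognize, on both strands from 250 bases before to 250 after the median summit. AP-1 letters (TGANTCA) were found in 60.0% of the member loci, in 63.0% of the other distal loci and in 17.6% of the 10172 loci at start sites. The TEAD letters GGAATG were found in 39.7%, 39.0% and 20.5%, the RUNX letters TGTGGTT in 16.4%, 18.1% and 6.11%, and the SP/KLF letters GGGCGGG in 8.61%, 6.78% and 57.9%, in the same order. A CTCF match was found at 3 member loci (0.833%) and at 1.91% of the other distal loci. In the AP-1, TEAD, RUNX and SP/KLF letters member loci were thus close to the other distal loci and far from start sites. This did not hold for the CTCF, E-box and NF-kB matches. Their GC content averaged 49.98% ± 7.15 (SD over 360 windows), against 47.5% and 63.4%. A match is a description of letters and does not show binding.

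AP-1 letters were found in at least 1 locus of 81 of the 83 clusters, in at least 3 loci of 47 and in every locus of 9. HS1BP3 had them in all 5 loci and PRKCH in 5 of 6. The ADGRL2 and TPRG1 clusters had none.

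The 216 member loci with AP-1 letters exceeded the other distal loci with these letters by 6.55, 5.62 and 6.39 points in the parental libraries and by -1.39, 1.06 and 0.394 points in the SAP30-KO1 libraries. The ranges lay apart, with a difference of -6.17 points (two-sided exact permutation p = 0.1, the smallest possible). Without the letters, 144 member loci exceeded their counterparts by 4.28, 5.64 and 5.06 points in parental and by 5.27, 3.66 and 5.58 points in SAP30-KO1 libraries, a difference of -0.153 points (exact permutation p = 0.8). The difference between these group differences was -6.01 points, with libraries that do not overlap (exact permutation p = 0.1). It was -5.69 when the whole locus was searched and -5.07 with letters within 100 bases of the summit. The split was chosen after the data were seen, and it was 1 of 8 splits by letters that left at least 30 members on either side. Of these 8, the libraries were also apart for TEAD, in the other direction (3.37 points, exact permutation p = 0.1), and over the 8 splits the adjusted p of both was 0.4 (Benjamini-Hochberg). When the loci were split at the median GC content of distal loci the difference was 1.44 points (exact permutation p = 0.5). The other distal loci with AP-1 letters were at 51.7 ± 2.88 for parental and 54.7 ± 5.67 for SAP30-KO1 cells (SD, n = 3), and the members with the letters at 57.9 ± 3.32 and 54.7 ± 6.88.

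**Figure D5:**
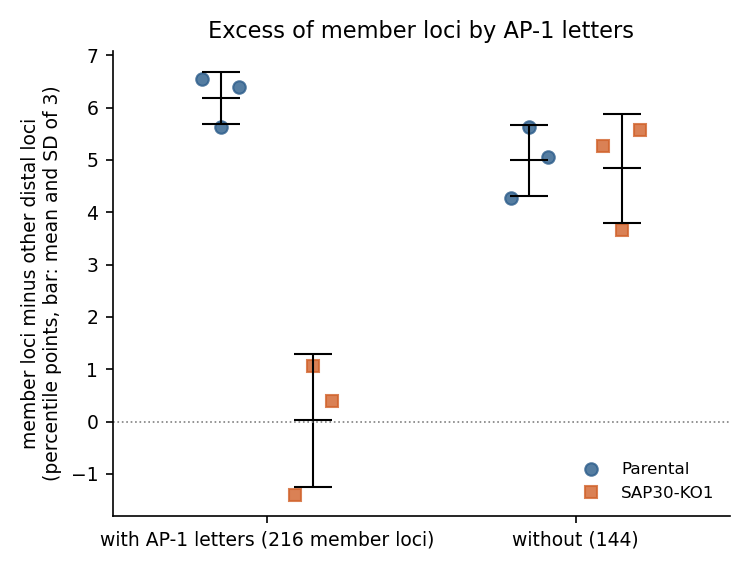
Excess of member loci over the other distal loci of the same library, in percentile points, for loci with and without the AP-1 letters. Points are libraries, bars the mean and SD of 3. With the letters the parental libraries are at 5.62 to 6.55 and the SAP30-KO1 libraries at -1.39 to 1.06, and without them the groups overlap.

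The genes nearest to the clusters were mostly open at their own start sites. Of 80 distinct nearest genes, 44 (55.0%) had a promoter summit in all 6 libraries, against 44.1% of the 6340 nearest genes of other distal loci and 35.3% of 18639 protein-coding genes. The mean percentile of these 80 promoters was 48.2 ± 2.44 for parental and 50.1 ± 6.44 for SAP30-KO1 cells (SD, n = 3; two-sided exact permutation p = 0.8). Besides TGFBI, ECI2 and HS3ST1, promoters without overlap were found at 5 genes whose clusters did overlap. In all, 3 of the 57 nearest genes with a promoter summit in at least 4 libraries were lower (5.26%) and 5 higher (8.77%), near the 5.7% and 6.84% of the 8979 protein-coding promoters that passed the same limit. IRF2BPL, a regulator of transcription, was at 15.2, 0.996 and 11.96 in parental cells against 66.3, 42.2 and 35.8 in SAP30-KO1 cells. BCL10, SLC44A1 (a choline transporter) and IMP3 (a ribosome biogenesis factor) were higher in all SAP30-KO1 libraries, and DNAJB6, a chaperone, was lower, at 53.5, 40.6 and 60.4 in parental cells against 0, 13.4 and 0 in SAP30-KO1 cells. The nearest genes of 13 clusters had no promoter summit in any library, among them RGS1, FGFBP1, DACT1, ITGB6 and PTPRC. PTPRC encodes CD45, the phosphatase of blood cells. The cluster inside it (chr1:198626575-198651576) had 57.1, 75.3 and 61.4 for the parental replicates and 56.97, 74.5 and 51.3 for the SAP30-KO1 replicates, with groups that overlapped.

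Genes of the lists followed here seldom had a cluster, as was so for protein-coding genes in all. Over all 18639 protein-coding genes 95 (0.51%) overlapped a cluster or had the nearest start site. Of 23 mesenchymal and invasion genes only TGFB2 did (4.35%), a TGF-beta ligand, with group means of 50.6 and 46.5. Of 23 luminal and hormone receptor genes ELF3, an epithelial ETS factor, and MLPH, melanophilin, had one (8.70%), both without a promoter summit. The ELF3 cluster had means of 52.9 and 53.1, and the MLPH cluster 42.1 and 24.3, with libraries of the groups overlapping at both. Of 16 YAP and TEAD genes CCN1 had one (6.25%), and of 20 lineage factors MYC and TP63 (10%). These list shares lie above that of all genes, rest on 1 or 2 genes each and were not tested. TP63, the p53 family factor of basal epithelium, was the nearest start, at 312 kb, of the TPRG1 cluster, which had the largest positive difference of any cluster, 18.8 points, with overlap (43.5, 70.6 and 54.4 in parental cells against 75.4, 82.3 and 67.1 in SAP30-KO1 cells). None of 13 AP-1 genes, 16 cytokine and chemokine genes, 19 SIN3 complex genes or the 10 genes followed by the study had a cluster. At the share of 0.51% over all genes, lists of these sizes would mostly hold none. Neither SAP30 nor PDGFB, PDGFD, CLDN1, RDX, ADM2, NOTCH3, HSPA6, IPO13 or ARTN was therefore named by one.

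On the long arm of chromosome 11, where the other distal loci ranked 19.3 points lower in SAP30-KO1 cells, the 2 clusters (SNX19 and TMEM135, 9 loci) had a difference of 0.676 points. Those 9 loci averaged 38.9, 26.1 and 41.6 for parental and 32.9, 34.6 and 41.2 for SAP30-KO1 libraries. On the long arm of chromosome 1, the arm with the most clusters, member loci differed by -3.70 points and the other distal loci by 0.791.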

How the data were processed

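ATAC-seq was run on 3 parental and 3 SAP30-KO1 libraries of MDA-MB-231 cells. Per the study's methods and the submitters' processing notes, the authors checked single-end reads of 75 bp with FastQC 0.11.2, trimmed them with Trim Galore 0.4.5, aligned them to hg19 with Bowtie2 2.3.3.1, took out duplicates (Picard) and called peaks at a q value of 0.05 (MACS2 2.1.0); ChIPseeker is also named there. Shifting of reads for the transposase offset and the handling of blacklisted regions and mitochondrial reads are not given in the sources used here. A shift of a few bases is small against windows of 501 bp, and blacklisted regions could add strong summits to every library. The deposited lists hold summits with a score, the −log10 of the q value. They had 29762 to 40650 summits per library and hold no reads, so the depth behind a summit is unknown and no counting interval is given. The lists and scores of separate libraries are not on a common scale, so scores were ranked within each list (percentile, 0 without a summit, highest summit of a locus).

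Clusters were built with Python 3.11.15, numpy 2.4.6, pandas 2.3.3 and pysam 0.24.0. Every largest summit position lay inside its GRCh37 chromosome. Library means were compared by exact permutation tests over 20 assignments of libraries or 64 sign flips of the library differences. Normal scores and correlations were computed with scipy 1.17.1. Loci were tested with limma 3.58.1 (R 4.3.3) on normal scores of the ranks, with Benjamini-Hochberg adjustment over all loci tested. In simulated data for that comparison (16309 loci), 56 of 100 loci changed by 2 units of the normal score and 0 of 100 changed by 1 unit were recovered, with 1 false call. The named clusters are the 10 with the most loci, the 5 with the highest mean percentile, the clusters without overlap between the groups (the rule named the 6 with the largest difference in each direction, and the rest were added to give the counts of 11 and 2 in full), up to 6 loci in each direction with the largest difference, and clusters at listed genes. A few clusters named for a limit of the rule, a position, a promoter or an extreme value (among them TPRG1, DUSP10, KCMF1 and PTPRC) were chosen after their values were seen. Members, gene lists and tests were chosen with earlier results of these data known. Alternatives were other joining distances, cluster sizes, presence and start-site limits, windows and q values, lists of equal length, ranks within chromosome arms, the log2 of the score, a fit blocked on the replicate number and the removal of single libraries.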

Additional observations from a re-analysis of the deposited data

How the results depend on the processing

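Counts moved with the rule. Joining at 5 kb left 0 clusters and 0 member loci, so no mean could be computed and no cluster was apart in either direction (0 and 0). Joining at 25 kb gave 311 clusters with 1479 loci, of which 21 were apart higher and 43 lower, and a minimum of 3 loci gave 313 with 1050 loci, 20 higher and 38 lower. A minimum of 6 loci gave 5 clusters with 31 loci and 0 apart either way, and a summit in all 6 libraries 15 with 63 loci, 1 higher and 3 lower. A q value of 0.0001 or less gave 50 clusters with 216 loci and 5 lower. Over 2.5 kb from start sites 1 was higher, with windows of 100 bp 0 were higher and 7 lower, with lists of equal length 6 were lower and with ranks within arms 1 was higher. Leaving out a library gave 53 to 63 clusters, 227 to 271 loci, 3 to 14 clusters higher and 12 to 22 lower. The 14 higher were found without SAP30-KO1 replicate 1, and the 53 clusters and 22 lower without SAP30-KO1 replicate 2. With 2 libraries in a group fewer values have to lie apart. Shares of the smaller groups were computed only for the main rule and without SAP30-KO1 replicate 1. The other counts of clusters apart therefore have no reference share and are given as a description.

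The excess of member loci was 2.53 with ranks within arms and 2.75 with q values up to 0.0001 (exact sign-flip p = 0.0625 for both), and 0.722 (exact p = 0.8125) with at least 6 loci. It was 3.29 to 4.24 without each library (exact p = 0.0625, the smallest that 5 libraries can give). The difference between the groups in mean percentile reversed to 0.0458 on the log2 scale of the score and to 1.09 without SAP30-KO1 replicate 1, in a range of -5.26 to 1.09 over the libraries left out. The difference in the excess kept its sign in all 20 alternatives, at -4.13 to -3.52 without each library. limma called 0 member loci in all 11 alternatives. The causes were not tested.

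Replicate numbers do not pair the libraries, since deviations of libraries with the same number correlated at -0.0121, -0.0152 and -0.00981 over 26269 loci. With the replicate block the difference in mean percentile stayed -2.11 (exact sign-flip p = 0.75) and that in the excess -3.86 (exact p = 0.25, the smallest possible), and limma called 0 member loci. Without read counts, the depth that limits each rank is unknown.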
